A study of Homo sapiens with 8 samples.

Results

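RNA of 10 transcription factors of the B lineage and of blood cell development was followed in CTCF AID2 SEM cells that had become resistant to auxin-induced degradation of CTCF. The genes, taken by their symbols, were PAX5, EBF1, IKZF1, TCF3, TCF4, SOX4, MYB, RUNX1, SPI1 and ERG, 10 of the 60754 rows of the expression table. All 10 reached a TPM (transcript level scaled for length and library total) of 1 in at least 1 library and were among the 15614 genes tested. SEM is a human B-cell acute lymphoblastic leukemia (B-ALL) line with a KMT2A rearrangement. In all groups both endogenous CTCF alleles ended in a miniAID-mClover3 tag, the degron with a fluorescent protein, and the cells expressed a mutant OsTIR1 adaptor with a Zeocin resistance gene from a lentiviral cassette under the MND promoter. The clones C17.2 and C3.2 each descend from a single sorted cell, so that each clone stands for itself only. There were 8 libraries of total RNA in 4 groups of 2, namely C17.2 parental, C17.2 resistant, C3.2 parental and C3.2 resistant. Parental cells were untreated, and resistant cells had been kept for 36 days in 1 μM 5-Ph-IAA, the auxin analog that drives the degradation, with 100 μg/ml Zeocin, and were then taken off both drugs. By the study's description, C17.2 resistant cells carry a nonsense change in CTCF that removes the tag and shortens the protein, and C3.2 resistant cells carry a missense change within the tag. After wash-out the study also saw tagged full-length CTCF in C17.2 resistant cells, still sensitive to auxin, beside the shortened form. Selection, the drugs and the time in culture went together in each comparison and cannot be told apart.

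B-lineage identity is built by a small network of DNA-binding proteins. The E proteins, encoded by TCF3 and TCF4, bind E-boxes and, with PU.1 (SPI1) and Ikaros (IKZF1) acting in early progenitors, open the way to EBF1, which together with PAX5 switches on genes of the pre-B cell receptor and B-cell receptor and silences those of other lineages. RUNX1, MYB, ERG and SOX4 act more widely in stem and progenitor cells as well as in early B cells. CTCF, the protein targeted here, binds DNA with zinc fingers and holds chromatin loops and domain borders.

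The values below are TPM divided by a library factor (0.893 to 1.16), called scaled TPM, and a fold change is a difference of log2(scaled TPM + 1), which understates the change of low genes. Tests were limma tests in one model of the 4 groups, two-sided, with Benjamini-Hochberg adjustment over the 15614 genes and a threshold of 0.05, and every adjusted p below comes from them. The labels do not say that the libraries of a group came from separate cultures, so these p-values measure only the spread between the libraries, which may be technical, and an exact permutation test of 2 against 2 libraries cannot go below 0.333. Sequencing depth is unknown, because TPM keeps none, and no counting error can be given. Across the tested genes, which do not count as replicates, libraries of the same group had a Pearson correlation of 0.9684 to 0.9786. From 36% to 43.3% of each library's TPM lay in protein-coding genes, so that a shift in the non-coding RNAs moves the TPM of all other genes. On TPM as deposited, without the library factors, the median log2 fold change of all tested genes was 0.135 in C17.2 and 0.0531 in C3.2, and it was 0 in both clones after scaling. The titles number the libraries of each clone in a separate consecutive series, the labels do not say what these numbers stand for, and levels of the 2 clones cannot be compared apart from them. The tagged gene CTCF (ENSG00000102974.16) was at 33.71 and 34.10 scaled TPM in C17.2 parental cells, 45.52 and 47.34 in C17.2 resistant cells, 36.01 and 35.00 in C3.2 parental cells, and 45.32 and 44.79 in C3.2 resistant cells. It rose in both, by a log2 fold change of 0.44 (adjusted p = 0.000795) in C17.2 and 0.34 (adjusted p = 0.0068) in C3.2, which is no test of the tag or of the protein. The C3.2 call was lost when C3.2 was fitted alone (adjusted p = 0.0684) and without C3.2 parental replicate 2, where the log2 fold change was 0.32.

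The label of B-ALL cells was checked against marker genes. CD79A (92.15 to 174.91 TPM as deposited) and CD22 (128.94 to 150.24) were present in all libraries, CD79B was lower (4.33 to 15.33), and DNTT, the terminal transferase of early lymphoid cells, was at or near 0 (0 to 0.25). The genes that KMT2A fusions keep active, HOXA9, HOXA10, MEIS1 and CSPG4, lay between 19.5 and 87.31 TPM, and none of these 4 passed the test in either clone (limma, none at an unadjusted p under 0.05 in C17.2 and 1 in C3.2). T-cell and erythroid markers did not exceed 0.32 TPM in any library. Of the megakaryocyte markers 1 of 4 was tested, GP9 (0.71 to 3.57 TPM), which fell in C3.2 (log2 fold change -1.15). The GP9 call was lost without 5 of the 8 libraries and under 2 of 9 other alternatives (adjusted p up to 0.117). Of the NK cell markers 1 of 4 was tested, NKG7 (7 to 14.17 TPM), which rose in C17.2 (0.51). The NKG7 call was lost without C17.2 parental replicate 2, where the log2 fold change was 0.45.

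Promoter windows from RefSeq (GRCh38.p14, 250 bases before to 50 after a start of the gene, which may have several) were matched for 9 of the 10 genes. SPI1 was not matched. Those of TCF3, SOX4 and MYB, which fell in both clones, and of ERG, which rose in both, are shown so that their bases can be set side by side, and that of RUNX1 because it holds a match to the CTCF motif. They lie at chr19:1652566-1652865 (reverse strand, TCF3), chr6:21593501-21593800 (forward, SOX4), chr6:135181058-135181357 (forward, MYB), chr21:38660618-38660917 (reverse, ERG, the first of its 4 windows) and chr21:34888650-34888949 (reverse, RUNX1). Capitals mark a match, on either strand, to the letters CANCTG (E-box), TGNGGT (RUNX), GAGGAA (ETS) or TGGGAA (Ikaros), or to a longer EBF1 or CTCF motif, given here by name alone.
TCF3: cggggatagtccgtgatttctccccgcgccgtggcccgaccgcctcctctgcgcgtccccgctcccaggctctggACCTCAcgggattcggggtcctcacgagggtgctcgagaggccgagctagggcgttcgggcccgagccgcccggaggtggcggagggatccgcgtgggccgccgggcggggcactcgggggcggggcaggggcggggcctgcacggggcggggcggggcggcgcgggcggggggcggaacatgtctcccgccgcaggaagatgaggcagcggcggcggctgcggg
SOX4: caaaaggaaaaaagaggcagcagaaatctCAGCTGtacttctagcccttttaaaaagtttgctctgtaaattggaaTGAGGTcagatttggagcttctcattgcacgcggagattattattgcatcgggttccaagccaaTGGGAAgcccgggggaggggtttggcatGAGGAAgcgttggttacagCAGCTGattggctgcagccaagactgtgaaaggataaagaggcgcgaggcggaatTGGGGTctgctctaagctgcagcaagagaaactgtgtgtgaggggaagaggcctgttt
MYB: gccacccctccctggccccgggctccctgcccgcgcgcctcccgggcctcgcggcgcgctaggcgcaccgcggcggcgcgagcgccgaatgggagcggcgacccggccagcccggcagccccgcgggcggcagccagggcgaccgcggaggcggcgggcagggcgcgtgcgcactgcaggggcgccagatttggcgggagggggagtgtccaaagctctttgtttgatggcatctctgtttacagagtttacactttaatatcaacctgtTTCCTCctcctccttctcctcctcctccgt
ERG: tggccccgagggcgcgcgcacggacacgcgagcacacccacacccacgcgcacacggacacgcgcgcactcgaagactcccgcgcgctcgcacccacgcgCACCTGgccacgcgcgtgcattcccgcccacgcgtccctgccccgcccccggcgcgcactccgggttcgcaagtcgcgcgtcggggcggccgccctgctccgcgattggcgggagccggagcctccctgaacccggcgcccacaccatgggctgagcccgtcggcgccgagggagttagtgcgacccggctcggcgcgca
RUNX1: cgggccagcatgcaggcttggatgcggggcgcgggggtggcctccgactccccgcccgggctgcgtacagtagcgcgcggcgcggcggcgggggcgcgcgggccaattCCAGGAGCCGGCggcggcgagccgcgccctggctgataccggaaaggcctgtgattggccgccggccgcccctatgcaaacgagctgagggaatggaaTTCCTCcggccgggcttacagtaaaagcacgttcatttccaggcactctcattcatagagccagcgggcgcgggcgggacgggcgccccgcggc
TCF3 held 1 RUNX match, MYB 1 ETS match and ERG 1 E-box match, and SOX4 held 2 E-box, 2 RUNX, 1 ETS and 1 Ikaros matches. RUNX1 held 1 ETS and 1 CTCF match, in its only window, which lies within the gene's span given below and not at its upstream end. Of all 35116 promoter windows in the table, 49.9% held an E-box, 43.2% a RUNX, 27.9% an ETS, 24.0% an Ikaros, 1.21% an EBF1 and 2.41% a CTCF match. A match is a run of letters and not a bound site, and 4 of these motifs are short enough to be common in any window.

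Each gene lies in its own locus on GRCh38. PAX5 (ENSG00000196092.14) spans chr9:36833269-37034268 and EBF1 (ENSG00000164330.17) spans chr5:158695920-159099916, both on the reverse strand. IKZF1 (ENSG00000185811.19) spans chr7:50304068-50405101 on the forward strand. TCF3 (ENSG00000071564.16) spans chr19:1609291-1652615 and TCF4 (ENSG00000196628.17) spans chr18:55222185-55664787, both reverse. SOX4 (ENSG00000124766.6) and MYB (ENSG00000118513.19) share a chromosome, at chr6:21593751-21598619 and chr6:135181308-135219173, both forward. RUNX1 (ENSG00000159216.18), at chr21:34787801-36004667, and ERG (ENSG00000157554.19), at chr21:38380027-38661780, share another, both reverse, and SPI1 (ENSG00000066336.11) spans chr11:47354860-47378547, reverse. The annotation holds 26 genes that overlap 9 of these loci, and of the 25 with a row only 2 reached 1 TPM in any library. These were RNU6-1223P, a small nuclear RNA copy inside TCF3 on the same strand (0 to 18.54 TPM), and EZH2P1, a pseudogene inside RUNX1 on the same strand (0 to 1.37 TPM). Whether the counting used strand is not given in the sources used here.

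The 10 factors were chosen with earlier results of these data known, so their counts beside the shares of all genes are no independent test. In C17.2, 6 of the 10 factors passed the test, against 27.3% of all genes tested. ERG rose (13.4% of all genes rose), and TCF3, SOX4, MYB, RUNX1 and SPI1 fell (13.9% of all genes fell). PAX5, EBF1, IKZF1 and TCF4 did not pass. The median log2 fold change of the 10 was -0.27, beside a median of 0 over all genes. In C3.2, 6 of the 10 passed as well, against 11.4% of all genes tested. PAX5 and ERG rose (4.46% of all genes rose), and IKZF1, TCF3, SOX4 and MYB fell (6.9% of all genes fell), with a median of -0.181 beside 0 over all genes. With C3.2 fitted by itself, none of the 10 passed (limma, 6 at an unadjusted p under 0.05) and 74 genes in all did. At 3 members, the count in C3.2 was smaller too on TPM as deposited and without C17.2 parental replicate 1 or 2 or C3.2 resistant replicate 2, and at 2 members without either C3.2 parental replicate. The 2 resistant libraries lay wholly above or below the 2 parental ones for 8 of the 10 factors in C17.2, with 2 above and 6 below, and for 9 of the 10 in C3.2, with 3 above and 6 below. Over all genes tested these shares were 66% (33.3% above and 32.7% below) and 55.8% (27.8% and 28.1%). TCF3, SOX4 and MYB fell in both clones and ERG rose in both. In these bulk libraries, fewer cells with a transcript and less of it per cell cannot be told apart.

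**Figure D1:**
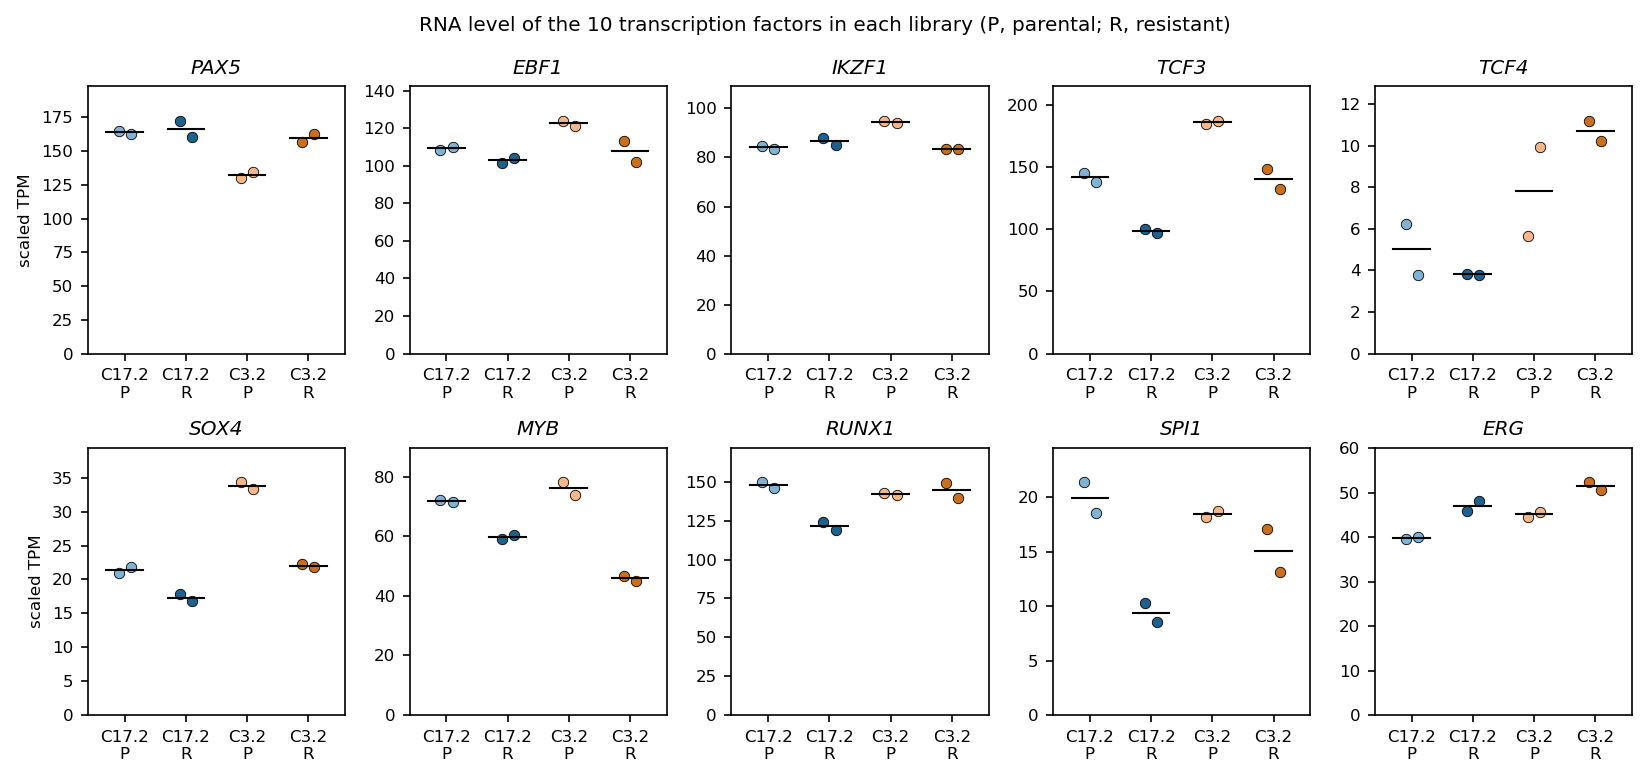
Scaled TPM of the 10 transcription factors (vertical axes, each from 0) in the 8 libraries, with 2 points and their mean (line) per group, for parental (P) and resistant (R) cells of C17.2 and C3.2. The resistant points of TCF3, SOX4 and MYB lie below the parental points in both clones, and those of ERG lie above.

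PAX5, the factor that commits cells to the B lineage and holds them there, was the most abundant of the 10 in 3 groups. It was at 165.2 and 162.8 scaled TPM in C17.2 parental cells and at 172.4 and 160.2 in C17.2 resistant cells, and in C3.2 it went from 130.1 and 134.8 in parental cells to 156.9 and 162.7 in resistant cells. The groups overlapped in C17.2 and did not in C3.2, whose parental libraries were the lowest of all 8. Its log2 fold change in C17.2 was 0.02 (SE 0.0501, adjusted p = 0.816), with a 95% confidence interval of -0.10 to 0.14, and PAX5 rose in C3.2 by 0.27 (SE 0.0501, adjusted p = 0.0229). The C3.2 call was lost without either C17.2 parental replicate, without either C3.2 parental replicate and without C3.2 resistant replicate 2 (adjusted p between 0.0558 and 0.126), and when C3.2 was fitted alone (adjusted p = 0.0912).

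EBF1, which specifies the B lineage with PAX5, was slightly lower in resistant libraries of both clones without passing the test in either. Levels were 108.4 and 110.2 scaled TPM in C17.2 parental cells against 101.5 and 104.3 in resistant cells, and 123.9 and 121.3 against 113.3 and 102.0 in C3.2. The groups did not overlap in either clone. The log2 fold changes were -0.09 (95% confidence interval -0.22 to 0.05, adjusted p = 0.309) and -0.19 (-0.32 to -0.05, adjusted p = 0.0878), the first of which turned to 0.07 on TPM as deposited. Without C3.2 resistant replicate 1, the higher of its pair, the second was -0.26 and passed (adjusted p = 0.0223).

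IKZF1 encodes Ikaros, a zinc finger protein of lymphoid development that is often lost in B-ALL. Its RNA was at 84.86 and 83.31 scaled TPM in C17.2 parental cells and at 88.05 and 85.06 in resistant cells, with a change of 0.04 on the log2 scale (-0.05 to 0.13, 95% confidence interval, adjusted p = 0.471). In C3.2 it fell from 94.94 and 93.93 in parental cells to 83.65 and 83.46 in resistant cells (log2 fold change -0.17, SE 0.0382, adjusted p = 0.0359). Resistant libraries lay above the parental ones in C17.2 and below them in C3.2. The fall in C3.2 depended on the scaling, since the adjusted p was 0.308 on TPM as deposited, 0.383 after quantile normalization and 0.248 when protein-coding genes alone set the total, and it was lost without each of the 4 C3.2 libraries and each C17.2 parental library (0.0572 to 0.139). In C17.2 the TPM as deposited gave 0.20 and passed (adjusted p = 0.0437).

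TCF3 encodes the E proteins E12 and E47, which act at the start of the B lineage program. It fell in both clones and had the largest drop in scaled TPM of the 10. In C17.2 it went from 145.2 and 138.5 scaled TPM in parental cells to 100.0 and 97.04 in resistant cells. In C3.2, where the parental level was the highest of any of the 10 factors in any group, it went from 185.1 and 187.4 to 148.6 and 132.2. The groups did not overlap in either clone, and the 2 resistant libraries of C3.2 stood further apart than those of C17.2. The log2 fold changes were -0.52 (SE 0.0624, adjusted p = 0.00198), or 0.697 times the parental value of scaled TPM + 1, and -0.41 (SE 0.0624, adjusted p = 0.0127), or 0.754 times. The first passed under all alternatives run (adjusted p up to 0.0258), and the second was lost on TPM as deposited (adjusted p = 0.0743), when C3.2 was fitted alone (0.106) and without either C3.2 parental replicate (0.0885 and 0.0835).

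TCF4, the E protein best known from plasmacytoid dendritic cells, was the lowest of the 10 in every group and the most variable. It was at 6.248 and 3.777 scaled TPM in C17.2 parental cells and at 3.851 and 3.789 in resistant cells, and at 5.664 and 9.958 in C3.2 parental cells and 11.20 and 10.24 in resistant cells. The parental libraries of each clone differed from each other more than 1.5 times, the groups of C17.2 overlapped, and those of C3.2 did not. Neither log2 fold change passed, at -0.29 (95% confidence interval -0.94 to 0.36, adjusted p = 0.474) and 0.45 (-0.19 to 1.10, adjusted p = 0.325), and the first was 0.01 without C17.2 parental replicate 1, so these intervals leave room for a rise or a fall in both clones.

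SOX4, a factor of early B-cell progenitors that also acts in leukemic cells, fell in both clones. It went from 21.00 and 21.89 scaled TPM in parental cells to 17.84 and 16.77 in resistant cells of C17.2. In C3.2 it went from 34.31 and 33.34 to 22.24 and 21.78. No resistant library reached a parental one of its clone, and the resistant level of C3.2 was close to the parental level of C17.2. The log2 fold changes were -0.29 (SE 0.05, adjusted p = 0.00719) and -0.60 (SE 0.05, adjusted p = 0.00184). On TPM as deposited the first was -0.14 and did not pass (adjusted p = 0.104), and the second did not pass when C3.2 was fitted alone (adjusted p = 0.0525).

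MYB keeps hematopoietic progenitors proliferating and is among the genes that KMT2A-rearranged leukemias depend on. It fell in both clones, and in C3.2 its log2 fold change was the furthest from 0 among the 10. It was at 72.02 and 71.59 scaled TPM in C17.2 parental cells against 59.21 and 60.26 in resistant cells, and at 78.08 and 74.00 in C3.2 parental cells against 46.65 and 45.03 in resistant cells. The groups did not overlap in either clone, and the C3.2 resistant libraries were the lowest of the 8. The log2 fold changes were -0.26 (SE 0.044, adjusted p = 0.00694) and -0.72 (SE 0.044, adjusted p = 0.000597), which leave 0.834 and 0.608 times the parental value of scaled TPM + 1. The first did not pass on TPM as deposited, at -0.10 (adjusted p = 0.277), and the second did not when C3.2 was fitted alone (adjusted p = 0.053).

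RUNX1, a founding factor of blood stem cells that also serves the B lineage, fell in C17.2 and did not pass the test in C3.2. In C17.2 it went from 149.6 and 146.1 scaled TPM in parental cells to 124.2 and 119.3 in resistant cells, a log2 fold change of -0.28 (SE 0.0479, adjusted p = 0.00743). In C3.2 it was at 142.7 and 141.6 in parental cells and at 149.4 and 139.6 in resistant cells, and its log2 fold change of 0.02 (95% confidence interval -0.09 to 0.14, adjusted p = 0.807) became -0.03 without C3.2 resistant replicate 1. The groups stood apart in C17.2 and overlapped in C3.2. The fall in C17.2 did not pass on TPM as deposited, at -0.12 (adjusted p = 0.267), nor without C17.2 parental replicate 1, at -0.26 (adjusted p = 0.0504).

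SPI1 encodes PU.1, which at high levels drives myeloid cells and at lower levels serves B cells. Its fall in C17.2 was the furthest from 0 on the log2 scale among the 10, from 21.38 and 18.56 scaled TPM in parental cells to 10.31 and 8.52 in resistant cells. In C3.2 it was at 18.18 and 18.73 in parental cells and at 17.07 and 13.13 in resistant cells. All 4 resistant libraries lay below the parental libraries of their clone, by a small margin for C3.2 resistant replicate 1. The log2 fold change was -1.01 (SE 0.14, adjusted p = 0.00333) in C17.2, 0.496 times the parental value of scaled TPM + 1. It passed under all 9 processing alternatives (adjusted p up to 0.0195), and it ran from -1.14 to -0.888 with a library left out. In C3.2 it was -0.28 (95% confidence interval -0.62 to 0.05, adjusted p = 0.246). Of 9 listed myeloid markers 4 were tested, and 3 of these fell in C17.2 (13.9% of all genes fell), namely CD33 (-1.15), CSF1R (-0.64) and CEBPA (-0.54). The other, LYZ, was higher in C17.2 resistant cells without passing (1.375 against 0.4868 scaled TPM, log2 fold change 0.64, limma, adjusted p = 0.0713). None of the 4 passed in C3.2 (limma, 2 higher at an unadjusted p under 0.05). Only 1 of the 4 passed in C17.2 without C17.2 parental replicate 2 or without C17.2 resistant replicate 2, where the CD33 call was lost (adjusted p = 0.0657 and 0.0628), and the CSF1R call was lost without 7 of the 8 libraries and under 3 of 9 other alternatives (adjusted p up to 0.174). The summed level of all 9 listed markers was 24.89 and 26.66 scaled TPM in C17.2 parental cells against 16.06 and 16.44 in resistant cells. In C3.2 it was 19.02 and 20.64 against 22.35 and 22.29. Levels of the 9 differed widely. As deposited, the highest TPM in any library was 0.97 for MPO, 0.89 for ITGAM, 0.29 for ELANE, 0.2 for CD14 and 0.03 for CSF3R. LYZ reached 2.18, CSF1R 2.34 and CD33 9.02 TPM, and CEBPA lay between 10.28 and 14.75. The part of the myeloid markers in the fall of SPI1 was not tested.

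ERG, an ETS factor of stem and progenitor cells, was the one factor of the 10 that rose in both clones. It was at 39.53 and 40.11 scaled TPM in C17.2 parental cells against 45.88 and 48.15 in resistant cells, and at 44.53 and 45.75 against 52.34 and 50.55 in C3.2. The groups did not overlap in either clone. The log2 fold changes were 0.23 (SE 0.0445, adjusted p = 0.0108) and 0.18 (SE 0.0445, adjusted p = 0.0478). The first did not pass without C17.2 parental replicate 1 (adjusted p = 0.0572). The second was lost without each of the 8 libraries in turn (adjusted p between 0.0542 and 0.184) and under 5 of 9 other alternatives, while its value stayed between 0.16 and 0.29.

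**Figure D2:**
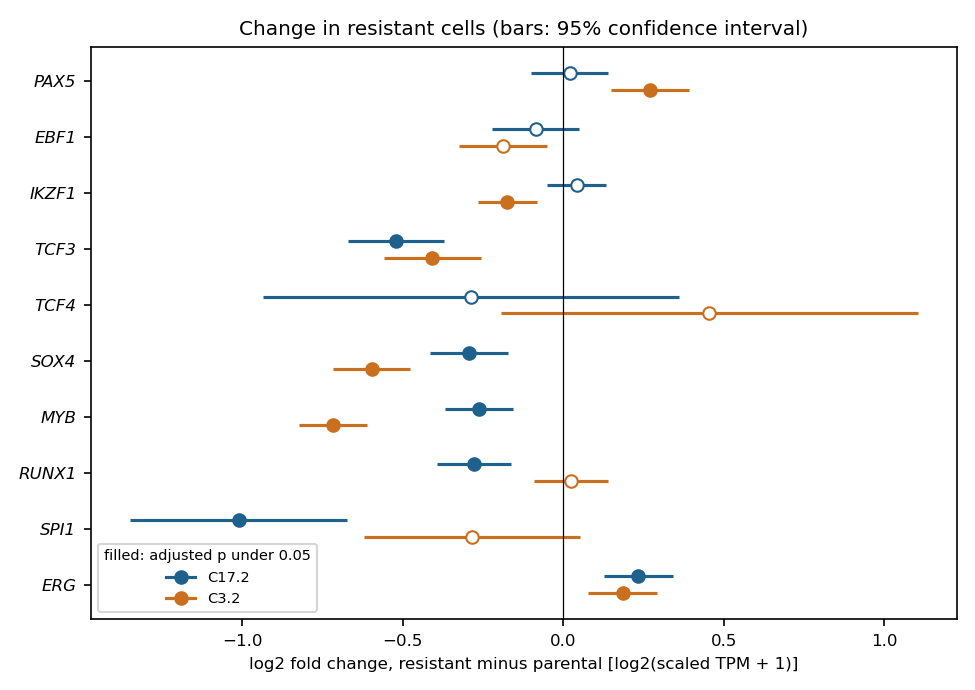
Log2 fold change of each factor in resistant against parental cells, on log2(scaled TPM + 1), with the 95% confidence interval as a bar, for C17.2 (blue) and C3.2 (orange), and filled points where the adjusted p from limma was under 0.05. The values run from -1.01 for SPI1 in C17.2 to 0.45 for TCF4 in C3.2, and TCF4 has the widest bars.

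**Figure D3:**
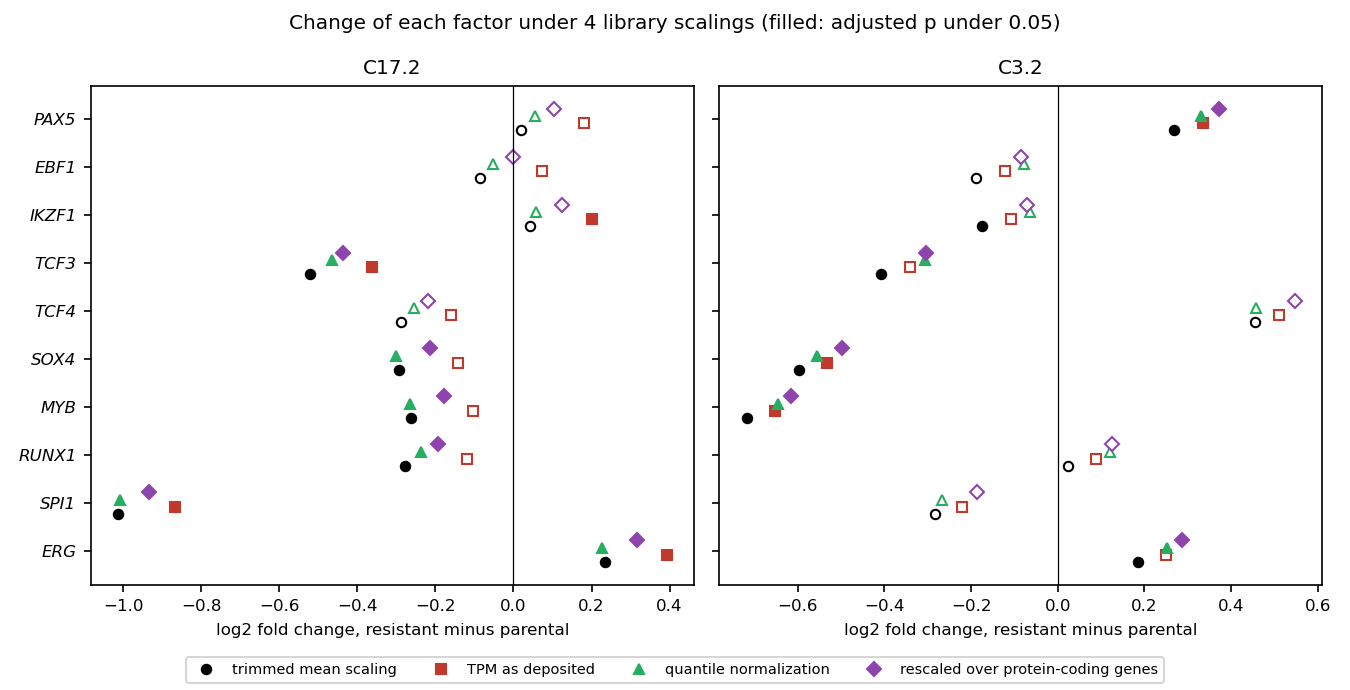
Log2 fold change (horizontal axes) of each factor in each clone under 4 ways of scaling the libraries, with filled symbols where the adjusted p was under 0.05. In C17.2 the TPM as deposited (red squares) lie to the right of the trimmed mean scaling (black circles) for all 10 factors, and EBF1 there changes from -0.09 to 0.07.

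A difference between the changes of the clones was tested for each factor as the C17.2 change minus the C3.2 change. It passed for 3 of the 10, against 9.9% of all genes tested (4.91% positive and 4.99% negative). MYB (0.46, SE 0.0622, adjusted p = 0.0092) and SOX4 (0.30, SE 0.0708, adjusted p = 0.0474) fell further in C3.2, and RUNX1 (-0.30, SE 0.0677, adjusted p = 0.0418) fell in C17.2 relative to C3.2. The MYB difference passed under all alternatives run, with an adjusted p up to 0.0257 over processing alternatives and up to 0.0449 with a library left out. That of SOX4 was lost without each of the 8 libraries (adjusted p between 0.0633 and 0.144) and under 5 of 9 other alternatives (between 0.0518 and 0.0803). That of RUNX1 was lost without each library except C3.2 resistant replicate 2 (between 0.0508 and 0.123) and under 3 of the others (between 0.0749 and 0.272, the highest on TPM as deposited). The SPI1 difference of -0.73 (95% confidence interval -1.20 to -0.25, adjusted p = 0.0704) did not pass, although SPI1 itself passed in C17.2 and not in C3.2, and it passed without C3.2 resistant replicate 2 (adjusted p = 0.043). PAX5 (-0.25, adjusted p = 0.0793) and IKZF1 (0.22, adjusted p = 0.0575) did not pass either, and the interval for TCF4 ran from -1.66 to 0.17. For the factors called in both clones with close values, the interval of the difference was -0.33 to 0.10 for TCF3 and -0.10 to 0.20 for ERG, and that of EBF1 was -0.09 to 0.29. Each clone's libraries carry a number series of their own in the titles, so a difference between clones cannot be told apart from one between these series.

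**Figure D4:**
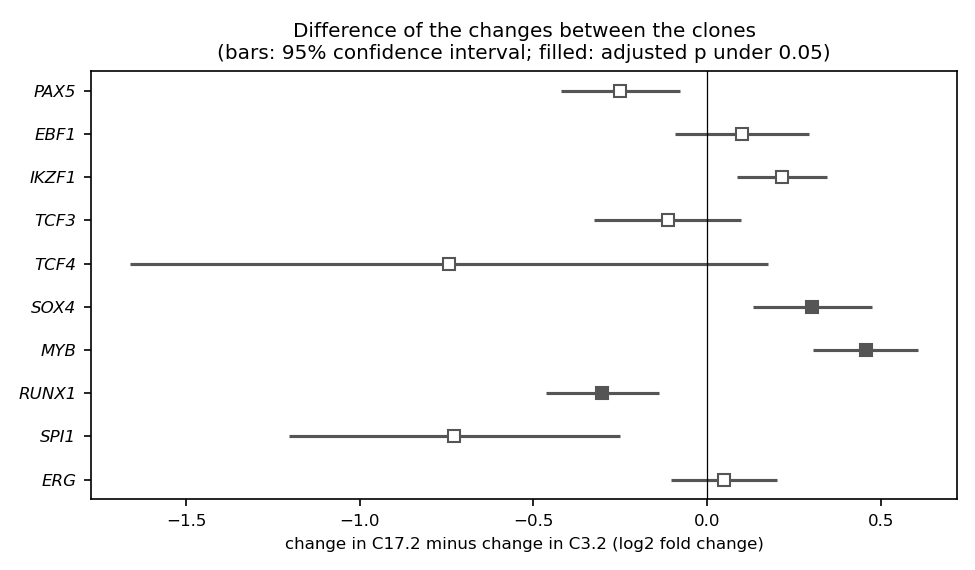
Difference between the log2 fold changes of the clones (C17.2 minus C3.2) for the 10 factors, with the 95% confidence interval as a bar and filled squares where the adjusted p from limma was under 0.05. The filled squares are MYB at 0.46, SOX4 at 0.30 and RUNX1 at -0.30.

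TPM is set per transcript length, so that levels can be ordered between genes within a group. In C17.2 parental cells the order in mean scaled TPM was PAX5 (164), RUNX1 (147.9), TCF3 (141.9), EBF1 (109.3), IKZF1 (84.09), MYB (71.81), ERG (39.82), SOX4 (21.45), SPI1 (19.97) and TCF4 (5.012). Of these neighbors, SOX4 and SPI1 overlapped in their libraries. In C17.2 resistant cells EBF1 (102.9) stood above TCF3 (98.52), and no neighbors overlapped. In C3.2 parental cells TCF3 came first (186.3), ahead of RUNX1 (142.2) and PAX5 (132.4). In C3.2 resistant cells PAX5 (159.8) came first, RUNX1 (144.5) and TCF3 (140.4) overlapped, and ERG (51.45) stood above MYB (45.84), which was the reverse of the other 3 groups.

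The genes whose RNA ran most alike over the 8 libraries were named for each factor from 10776 protein-coding genes by Pearson's r of log2(scaled TPM + 1). These are descriptions over libraries that share 4 groups and 2 clones. The best matches of the factors that fell in both clones were RPL36 (r = 0.9906) and RPS19 (0.9886), both ribosomal protein genes, for TCF3, ZC3HAV1L (0.9928) and TEAD4 (0.9921) for SOX4, and NME4 (0.9924) and MACF1 (0.9912) for MYB. LYL1 (0.991), a basic helix-loop-helix factor, and CNPY3 (0.9851) were closest to SPI1, and HDAC7 (0.9759) ran close to RUNX1. SAYSD1 (0.9861) and SCIMP (0.9793) were closest to ERG, CYP20A1 (0.9883) and RALGAPB (0.9864) to PAX5, and UBFD1 (0.99) and SMIM11A (0.9848) to EBF1. The matches of IKZF1, NELL1 (0.9638) and L3MBTL3 (0.9495), and of TCF4, PNPLA6 (0.96) and TEDC1 (0.9583), were the weakest.

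Genes of the wider network were read from fixed lists, chosen with earlier results of these data known. The list counts stand beside 27.3% of all tested genes called in C17.2 (13.4% higher and 13.9% lower) and 11.4% in C3.2 (4.46% higher and 6.9% lower). ID proteins bind E proteins and keep them off DNA, and LYL1, TAL1, LMO2 and LDB1 form complexes with E proteins. Of 9 such genes 7 were tested (not ID4 and TAL1, which stayed under 1 TPM). In C17.2, ID2 (log2 fold change 0.62, adjusted p = 0.0102) and ID3 (0.39, adjusted p = 0.0135) rose and LYL1 (-0.82, adjusted p = 0.0103) and LMO2 (-0.57, adjusted p = 0.00137) fell, and 3 did not pass. In C3.2, ID2 rose (0.76, adjusted p = 0.0129), TCF12, the remaining E protein gene, fell (-0.57, adjusted p = 0.00832), and 5 did not pass. ID2 stayed low, at 4.235 ± 0.705 (SD, n = 2) scaled TPM in C17.2 parental cells and 7.019 ± 0.459 in resistant cells, and at 4.642 ± 0.337 and 8.547 ± 0.859 in C3.2. In C3.2 no gene of this list passed without either C3.2 parental replicate or with the clone fitted alone (limma, 3 at an unadjusted p under 0.05 in the latter), and in C17.2, 2 passed without C17.2 parental replicate 2 or C17.2 resistant replicate 2.

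Relatives and binding partners of the 10 factors were tested for 12 of 17 genes. In C17.2, MYBL1, a relative of MYB, rose (0.70, adjusted p = 0.0053), and SPIB, the closest relative of SPI1 (-0.41, adjusted p = 0.0198), MYBL2 (-0.21, adjusted p = 0.0157) and the ETS factor FLI1 (-0.13, adjusted p = 0.0496) fell, while 8 did not pass. These 4 of 12 were near the 27.3% of all tested genes called in that clone. The value of FLI1 turned to 0.03 on TPM as deposited. MYBL1 was low, with a mean of 1.291 scaled TPM in parental and 2.701 in resistant cells of C17.2. In C3.2 these means were 0.9649 and 1.746, and the MYBL1 call given next was lost under 4 of 9 processing alternatives. In C3.2, MYBL1 (0.48, adjusted p = 0.0398) and ETV6 (0.25, adjusted p = 0.0298) rose and 5 fell, led by IKZF2, which encodes Helios, a relative of Ikaros (-0.90, adjusted p = 0.00121), and ETS1 (-0.58, adjusted p = 0.00165), while 5 did not pass, beside 11.4% of all tested genes called. With any one library left out, between 3 and 4 of these genes passed in C3.2, and none did with that clone fitted alone (limma, 7 at an unadjusted p under 0.05). In C17.2 only 1 did without either parental replicate or without resistant replicate 2 of that clone.

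Of 20 other B-lineage transcription factors 19 were tested. In C17.2, 2 rose, 8 fell and 9 did not pass, with a median log2 fold change of -0.198 beside 0 over all tested genes, of which 13.4% rose and 13.9% fell. KLF2 (0.65, adjusted p = 0.00729) and ELF1 (0.30, adjusted p = 0.00298) rose, and the largest falls were those of BACH2 (-1.04, adjusted p = 0.00836) and BCL6 (-0.96, adjusted p = 0.000695), both repressors of B-cell stages. In C3.2, 2 rose, 6 fell and 11 did not pass, with a median of -0.133 beside 0 over all tested genes, of which 4.46% rose and 6.9% fell. BCL11A (0.33, adjusted p = 0.00638) and ELF1 (0.29, adjusted p = 0.0091) rose, and BCL6 (-1.17, adjusted p = 0.00123) and the coactivator gene POU2AF1 (-0.61, adjusted p = 0.00154) fell most. POU2AF1 fell in C17.2 as well (-0.76, adjusted p = 0.000194). BACH2 was lower in C3.2 without passing (-0.745, adjusted p = 0.0523), and it was low in C17.2, at 2.82 scaled TPM in parental and 0.8444 in resistant cells. BCL6 went from 13.72 ± 1.14 to 6.549 ± 0.332 scaled TPM (SD, n = 2) in C17.2 and from 17.47 ± 1.54 to 7.213 ± 0.38 in C3.2. Without C3.2 parental replicate 1 or 2, 2 and 3 genes of this list passed in C3.2, and none did with that clone fitted alone (limma, 11 at an unadjusted p under 0.05).

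Of 14 genes that PAX5 and EBF1 are known to activate 9 were tested, and 7 of these fell in each clone. Because the list was chosen with earlier results of these data known, its counts are no independent test. In C17.2, 7 fell, none rose and 2 did not pass, with a median log2 fold change of -0.699 beside 0 over all genes, of which 13.9% fell. In C3.2, 7 fell, none rose and 2 did not pass (limma, none higher at an unadjusted p under 0.05 in either clone), with a median of -0.627 beside 0 over all genes, of which 6.9% fell. The largest falls were in VPREB3 (-3.35, adjusted p = 4.25e-05, in C17.2 and -2.35, adjusted p = 0.000534, in C3.2) and in IGLL1, a part of the surrogate light chain (-2.16, adjusted p = 2.28e-05, and -2.35, adjusted p = 0.000122). VPREB3 went from 52.84 ± 2.25 to 4.296 ± 0.594 scaled TPM (SD, n = 2) in C17.2 and from 57.24 ± 3.18 to 10.51 ± 2.14 in C3.2. IGLL1 went from 83.48 ± 2.61 to 17.85 ± 0.12 and from 170 ± 14.3 to 32.48 ± 2.48. Among the 4 B-lineage markers, all of which are also on this list, CD79B fell in both clones (-1.51 and -1.03), as did CD79A (-0.41 and -0.20), though the CD79A call in C3.2 was lost under most alternatives run. The summed level of the 4 B-lineage markers was 314.5 and 318.6 scaled TPM in C17.2 parental cells against 256.4 and 244.1 in resistant cells, and 274.9 and 286.7 against 262.5 and 269.8 in C3.2. With C3.2 fitted alone, 1 gene of the activated list passed.

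Genes that PAX5 is known to repress were tested for 4 of 7. In C17.2, CSF1R (-0.64, adjusted p = 0.0421) and FLT3 (-0.28, adjusted p = 0.00345) fell, and in C3.2 NOTCH1 rose (0.42, adjusted p = 0.048) and FLT3 fell (-0.23, adjusted p = 0.0164). In each clone the other 2 of the 4 did not pass. FLT3, a receptor often high in KMT2A-rearranged leukemia, was the most abundant of them at 312.2 ± 4.55 scaled TPM (SD, n = 2) in C17.2 parental and 256.9 ± 6.49 in resistant cells. Its call was lost on TPM as deposited in both clones (adjusted p = 0.189 and 0.15). The CSF1R call was lost without 7 of the 8 libraries and under 3 of 9 other alternatives, that of NOTCH1 without 6 and under 5 (adjusted p up to 0.194), and that of FLT3 in C3.2 without 2 and under 4, and in C3.2 none of the 4 passed without either C3.2 parental replicate.

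**Figure D5:**
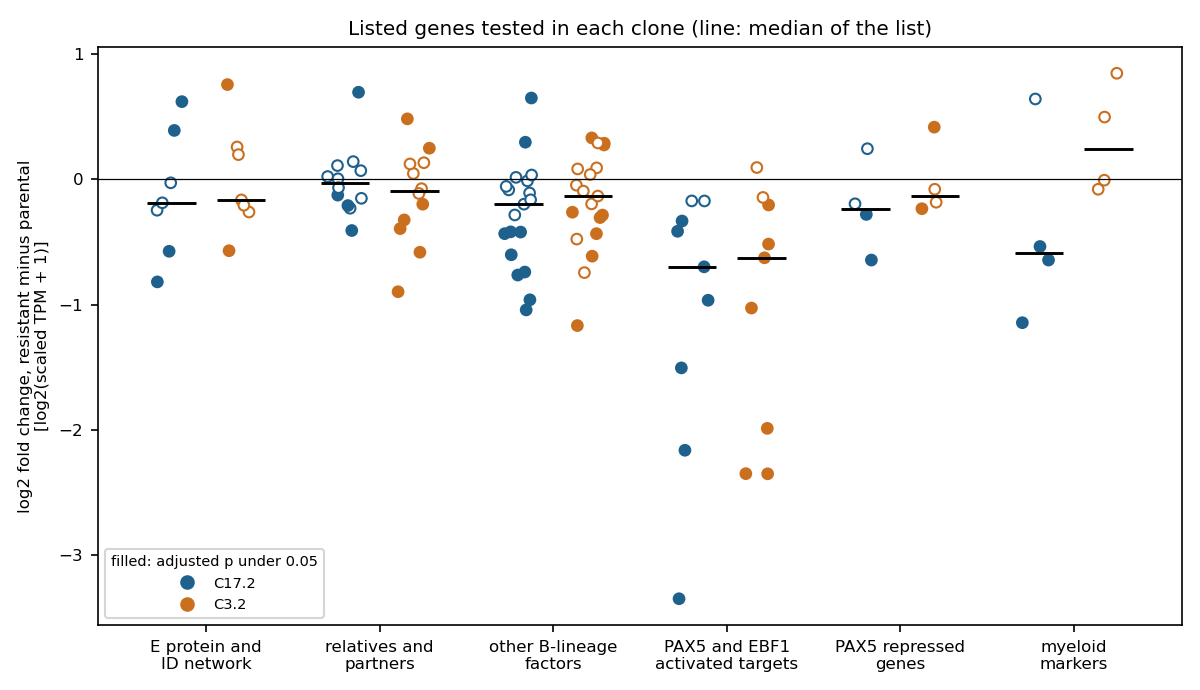
Log2 fold change (vertical axis) of every tested gene of 6 lists in C17.2 (blue) and C3.2 (orange), with filled points where the adjusted p from limma was under 0.05 and a line at the median of each list. The PAX5 and EBF1 activated targets hold the lowest single values, down to -3.35, with medians of -0.699 and -0.627, and horizontal position within a list carries no value.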

How the data were processed

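RNA-seq of 8 libraries of CTCF AID2 SEM cells was analyzed. Per the labels and the study's methods, the authors trimmed reads with Trim Galore 0.6.3, aligned them to hg38 with STAR 2.7.9a, quantified genes with RSEM 1.3.1 and deposited TPM per gene and library, to the nearest hundredth and with no scaling between libraries. The labels describe single-end reads and the methods paired-end reads. TPM keeps no depth, and limma-voom, which the study used, was not run because it works on counts.

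Genes with at least 1 TPM in at least 1 library were kept (15614 of 60754 rows). Library factors were the trimmed mean of log2 ratios to the mean library (30% of ratios and 5% of means trimmed per end). Log2(scaled TPM + 1) was fitted in limma 3.58.1 (R 4.3.3) with 4 groups, an intensity trend and Benjamini-Hochberg adjustment (threshold 0.05, two-sided). Contrasts were resistant against parental in each clone and the difference of these. On simulated data of 15614 genes for C17.2, with 200 changed by a log2 value of 1, 78.5% were recovered and 6.55% of calls were false. The alternatives were 9 in scaling, pseudocount, filter and model, and 8 with a library left out.

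The 10 genes and all lists were chosen with earlier results of these data known. Named genes were the 10, CTCF, the 2 largest called changes per list, clone and direction (all where 4 or fewer were called), the 2 most alike genes per factor, and overlapping genes. LYZ, RAG2, VPREB1 and GFI1 were named outside this rule. In the lists 1 gene was left out of every count and sum, and with 1 of the most alike genes it is not reported here. Genes were located by identifier in the GRCh38 annotation. Tables and plots used Python 3.11.15, pandas 2.3.3 and matplotlib 3.10.9.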

Additional observations from a re-analysis of the deposited data

Results flagged for a closer look

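The limma test of the difference itself (C17.2 log2 fold change minus that of C3.2, Benjamini-Hochberg adjusted over all genes) was passed by 9.9% of all genes tested. List genes were named mainly for called changes within a clone, which favors a difference. The count below therefore cannot be set against this share. Among the 10 factors and the list genes named above, the changes of 13 passed this test. Among the 10 factors these were SOX4 (0.303, adjusted p = 0.0474), MYB (0.4561, adjusted p = 0.0092) and RUNX1 (-0.3016, adjusted p = 0.0418). Among partners and relatives they were LMO2 (-0.772, adjusted p = 0.00496), which fell in C17.2 and did not pass in C3.2, IKZF2 (1.008, adjusted p = 0.00273), FLI1 (0.2676, adjusted p = 0.0284), ETS1 (0.6047, adjusted p = 0.00475) and ETV6 (-0.4003, adjusted p = 0.0218). Of the other B-lineage factors named, BCL11A (-0.4153, adjusted p = 0.00937) passed. CD79B (-0.4781, adjusted p = 0.0387) and VPREB3 (-0.9993, adjusted p = 0.0268) did so among the B-cell genes. The myeloid markers CD33 (-1.642, adjusted p = 0.0182) and CEBPA (-0.5297, adjusted p = 0.0188) completed the 13. Listed genes not named above passed this limma test too. They were RAG2 (1.024, adjusted p = 0.0146) and VPREB1 (0.3443, adjusted p = 0.0493) of the activated targets, and GFI1 (-0.4691, adjusted p = 0.0217) of the other B-lineage factors. Clone and the number series of the library titles cannot be told apart in any of these.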

How the results depend on the processing

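No paired analysis was possible because the labels give the libraries no replicate numbers, so that those used here follow accession order and pair nothing. Over 9 processing alternatives, 230 of the values for the 10 factors kept direction and side of the threshold, 26 lost the call, 2 gained one and 2 reversed, and with a library left out these numbers were 197, 38, 2 and 3. Values that reversed, none of them called except FLI1, were PAX5 in C17.2 (-0.0337 to 0.072 with a library left out), TCF4 in C17.2 (-0.589 to 0.0129), RUNX1 in C3.2 (-0.0255 to 0.0714), EBF1 and FLI1 in C17.2 (0.0734 and 0.0327 on TPM as deposited) and the ERG difference (-0.027 after quantile normalization). The factors called in C3.2 numbered 3 on TPM as deposited and 0 with the clone fitted alone, and the difference was called for 1 factor with no intensity trend. Of all genes, 1773 were called in C3.2, against 1167 with no filter on low values and 74 with the clone fitted alone. In C17.2 these numbers were 4261, 3782 and 3570. With a library left out, calls ranged from 2374 to 4551 genes and 4 to 6 factors in C17.2, from 325 to 1785 genes and 2 to 5 factors in C3.2, and from 541 to 1747 genes and 1 to 3 factors for the difference. A group with a lone library is assumed to vary like the others. The cause of these shifts was not tested. The share of calls that were higher was 49.1% in C17.2, 39.3% in C3.2 and 49.6% for the difference, against 75.1%, 57.8% and 64% without library factors, 64.5%, 70.1% and 45.6% with protein-coding genes alone setting the total, and 54.1%, 50.8% and 45% after quantile normalization. Depth is unknown, so no limit of detection can be given.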
